A study of Mus with 15 samples.

Results

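The genes described here encode the ligands and receptors of the classical axon guidance systems, namely the semaphorins and plexins, the ephrins and Eph receptors, the Slits and Robos, and the netrins and Unc5 receptors. They were chosen by symbol alone, as protein-coding genes on chromosomes 1 to 19 whose symbol begins with Sema, Plxn, Epha, Ephb, Efna, Efnb, Slit, Robo, Ntn or Unc5 and goes on with a family letter or number. This rule took 64 of 20665 coding genes, none of them chosen for its own measured value. The group as a whole was proposed with earlier results of these data known. A stricter reading, in which a digit must follow the prefix in every family, would keep 52 of them and leave out the plexins and the Unc5 genes. Unc5cl was kept on its symbol, although its product is not a netrin receptor, and Unc50 was left out because it does not belong to the family.

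Guidance molecules steer growing axons by attraction and repulsion, with secreted or membrane-bound cues on one cell read by receptors on another, and many of them stay in use at synapses of the adult brain. In the embryo, ephrins, Slits, netrins and semaphorins help to guide thalamic axons to the cortex. H2A monoubiquitinated at a lysine of its C-terminal tail (H2Aub) is the mark written by Polycomb repressive complex 1, which sits mostly at CpG-rich promoters of developmental regulators and is associated with gene silencing.

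H2Aub was mapped in whole mouse thalamus by ChIPmentation, a chromatin immunoprecipitation in which the transposase Tn5 adds sequencing adapters to chromatin still on the beads. Control mice (WT) are labelled Maged1 Loxp, which is to say that they carried the loxP-flanked Maged1 allele without its deletion, and Maged1-cKO mice (cKO) lost Maged1 in cells expressing Cre under the Vglut2 (vGluT2) promoter, a driver active in most thalamic relay neurons and in glutamatergic neurons elsewhere. All mice were 2 to 4 months old, were given saline on 3 days and were then injected intraperitoneally on 5 days, with cocaine at 20 mg/kg or with saline again. WT mice gave 3 libraries per treatment and cKO mice 2 after cocaine and 3 after saline, each from the pooled thalami of 3 to 4 mice by the labels (fewer at the least in the published methods), besides 4 libraries of input chromatin that the authors used as the control for peak calling and that were not analysed here. Thalami hold glia and cells without Vglut2 as well as the targeted neurons, so fewer marked cells and less mark per cell cannot be told apart. The study describes hemizygous males, and Maged1 lies on the X chromosome.

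The deposited data are 11 lists of broad H2Aub peaks, 1 per library, with 7271 to 80720 peaks that covered 4.23 to 27.3 Mb. The lists hold no read counts, so the depth behind a value is unknown, and a longer list from more reads cannot be told apart from a longer list from more marked chromatin. The replicates 1 of both cKO groups stood apart, with the longest lists and with peaks of up to 31.2-fold and 52.6-fold enrichment over input, against 5.98 to 12.2-fold at most in the other 9 lists. Those 9 lists had 7271 to 26055 peaks. Several values are also given without these 2 lists. Expression was not part of these lists, so the tissue could be looked at only through the mark. Of 6 thalamic neuron genes, 2 (Gbx2 and Lhx9) had a peak in all 11 libraries, while Prox1, Slc17a6, Rora and Tcf7l2 had one in 8, 9, 7 and 9. The mean over libraries was 9045 and 11466 bp under a peak for Gbx2 and Lhx9, and 959 to 2552 bp for the others. The median of the 6 was 18.5 covered bp per kb of window, or 13.3 without the cKO replicates 1.

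For each gene a window was laid over the gene body and 5 kb on either side, and the bases of that window under a peak were counted in every library (covered bp, a level). The guidance gene windows sum to 12.5 Mb and those of all coding genes to 1124 Mb. Guidance genes carried H2Aub peaks far more often than coding genes at large in each library. In WT cocaine thalami, 64.1, 70.3 and 60.9% of the 64 genes had a peak, where 24.6, 29.3 and 22.3% of all coding genes had one. In WT saline thalami the shares were 73.4, 51.6 and 59.4%, beside 27.4, 15.9 and 17.5% of coding genes. The cKO cocaine libraries gave 93.8 and 59.4% (coding genes 52.6 and 23.3%), and the cKO saline libraries 98.4, 51.6 and 45.3% (coding genes 61.2, 16.6 and 13.3%). The highest shares were those of the cKO replicates 1, and the 4 groups overlapped. Over all 11 libraries, 20 of the 64 genes (31.3%) had a peak in each, against 1474 coding genes (7.13%). Only 1 guidance gene, Ephb6, had no peak in any library, against 31.3% of coding genes. The genes with a peak in each of the 9 lists other than the cKO replicates 1 also numbered 20 (31.3%, against 7.16% of coding genes), while 11 (17.2%) had none there, against 58.1%.

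**Figure D1:**
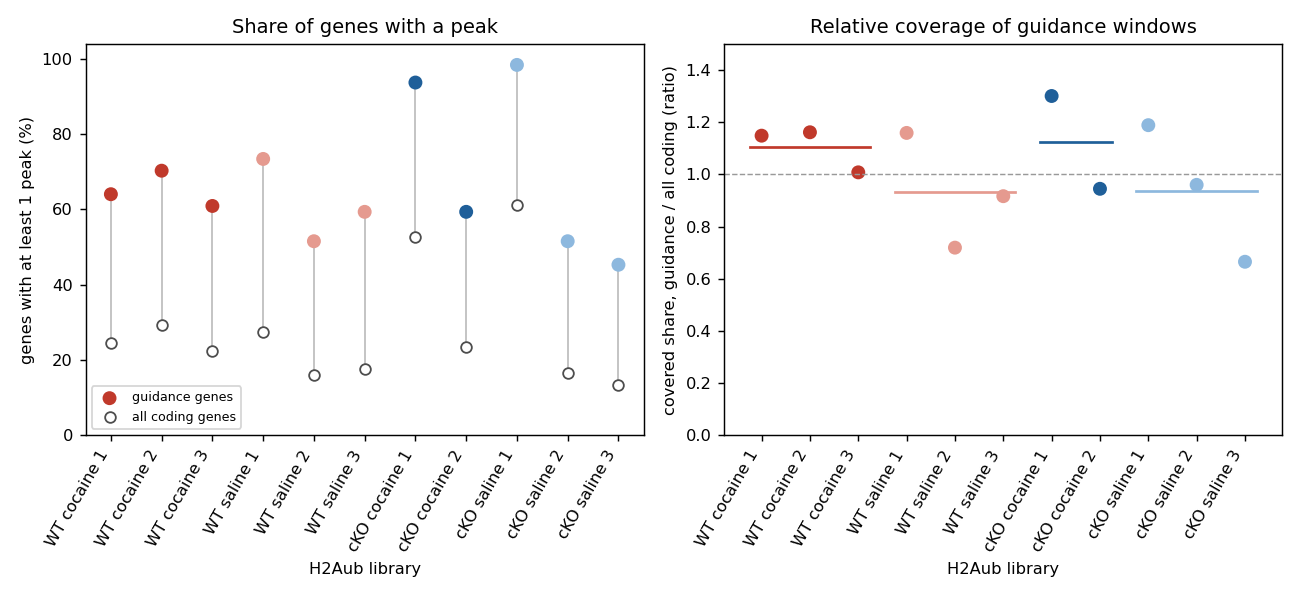
Left, share of genes with at least 1 H2Aub peak (%) in each of the 11 libraries, with filled points for the 64 guidance genes (coloured by group) and open points for all coding genes. Right, covered share of the guidance windows divided by that of all coding-gene windows, with a line at each group mean. The guidance share lies above the coding share in every library, between 45.3 and 98.4%, while the relative coverage runs from 0.665 to 1.3 on both sides of 1.

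Over the windows of all lengths together, the share of bases under a peak did not stand apart in the same way. The guidance windows had 1961 to 17988 covered bp per Mb and all coding windows 2949 to 15132, and the ratio of both (relative coverage) was 1.15, 1.16 and 1.01 in WT cocaine, 1.16, 0.719 and 0.916 in WT saline, 1.3 and 0.945 in cKO cocaine, and 1.19, 0.960 and 0.665 in cKO saline. The 2 shortest lists, cKO saline replicate 3 and WT saline replicate 2, had the lowest ratios, and the 2 longest, those of the cKO replicates 1, the highest. Coverage was concentrated in few genes. On average over the libraries, the 5 most covered genes held 37.7% of the covered bases in 6.0% of the window length, and the 10 most covered held 57.3% in 11.1%. Peaks in guidance windows had a median enrichment over input of 3.05 to 4.04-fold, beside 3.1 to 4.1-fold for peaks in coding windows, and median widths of 213 to 459 bp, beside 207 to 469 bp. Within each library the guidance median enrichment lay slightly below the coding one, with the widest gap in cKO cocaine replicate 1 (3.75 against 3.95-fold). The guidance median width was the smaller one in each WT library and in cKO saline replicate 3, and the larger in the other cKO libraries.

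Window length bears on these shares, since a long window can take a peak more easily. Among the 18 guidance genes with windows under 30 kb, the median share with a peak was 61.1% (33.3 to 94.4% over libraries), where coding genes of that length gave 18.2% (10.8 to 47.9%). For the 14 genes of 30 to 60 kb it was 78.6% against 23.0%, and for the 14 of 60 to 200 kb 64.3% against 32.8%. In these 3 classes the guidance genes lay higher in 11 of 11 libraries. Among the 18 genes of 200 kb or more the medians were 50.0 and 47.4%, with the guidance genes higher in 10 of 11 libraries. Per kb, the median guidance gene under 30 kb had 28.9 covered bp (coding genes 0.892) and that of 200 kb or more had 0.920 (coding genes 1.04). Without the cKO replicates 1 these medians were 14.9 (coding genes 0) and 0.424 (coding genes 0.272). By share of genes with a peak, the gap to coding genes was wider in the windows under 200 kb, and 6 of the 11 genes with no peak outside the cKO replicates 1 had windows of 200 kb or more. No test of this difference is given, since the gene group was proposed with earlier results of these data known.

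**Figure D2:**
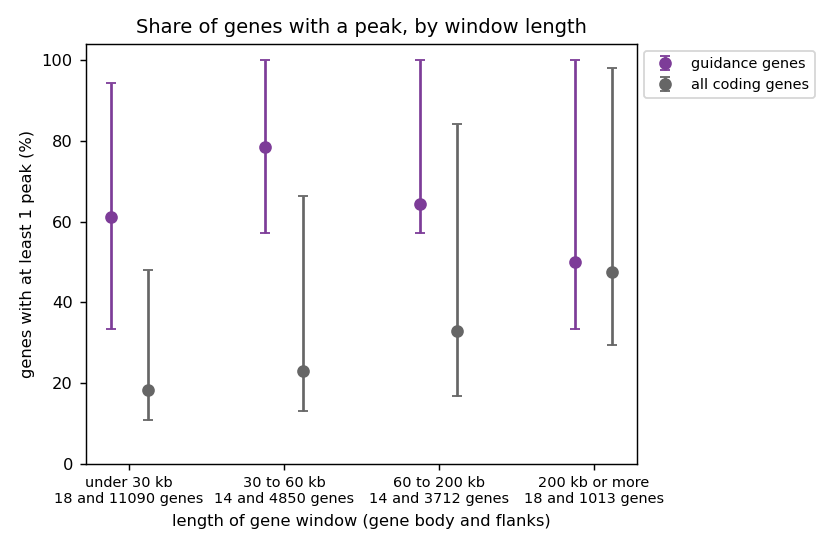
Share of genes with at least 1 peak (%) by length of the gene window, for guidance genes (purple) and all coding genes (grey). Points are medians over the 11 libraries and bars run from the lowest to the highest library, with the number of guidance and of coding genes under each class. The medians are 61.1 against 18.2% under 30 kb and 50.0 against 47.4% at 200 kb or more.

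**Figure D3:**
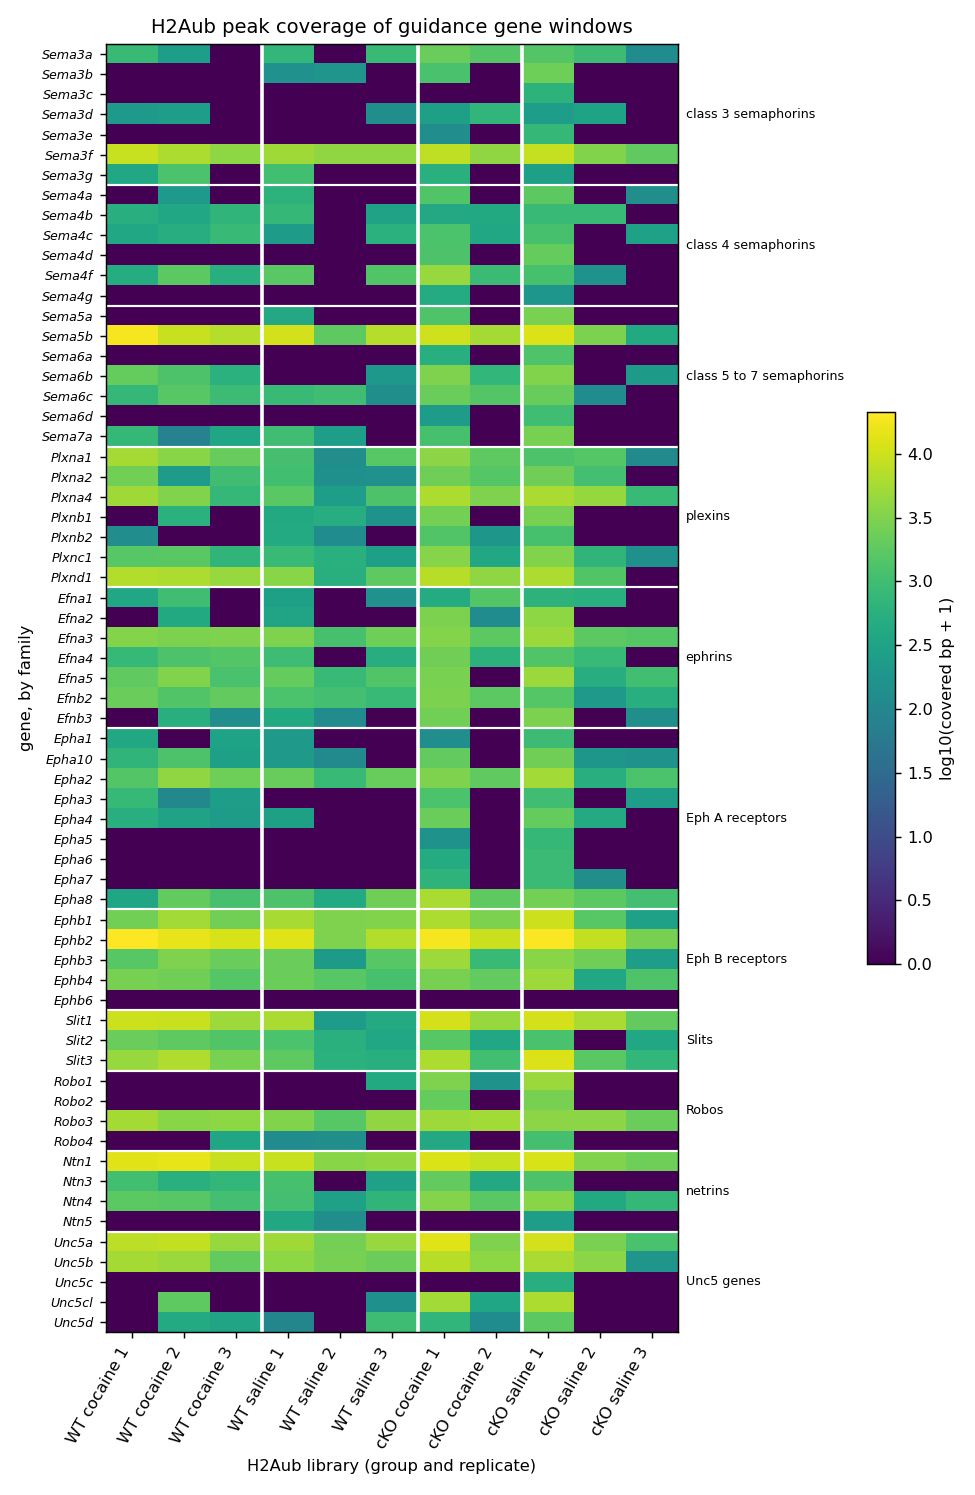
Covered bp of each guidance gene window (log10 of covered bp plus 1) in each of the 11 libraries, with genes ordered by family and white lines between families and between groups. Ephb2, Ntn1 and Sema3f are bright in every column, and the columns of the cKO replicates 1 are filled where most of the others are dark.

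The 20 semaphorins, which are repellents and attractants that signal mostly through plexins, included heavily covered genes and genes with hardly a peak. Sema3f, a secreted ligand that repels axons through neuropilin 2 (chr9:107681499-107710475, mm10), had 9343, 6313 and 3902 covered bp in WT cocaine, 5061, 4084 and 3994 in WT saline, 8036 and 4018 in cKO cocaine, and 8803, 3199 and 1836 in cKO saline. It was marked in all libraries, and the WT groups overlapped. Sema5b, a transmembrane semaphorin (chr16:35541154-35664261), had 18238, 9109 and 6993 bp in WT cocaine, 10559, 1825 and 7067 in WT saline, 10320 and 5549 in cKO cocaine, and 12625, 2936 and 423 in cKO saline. Sema3a, the prototype repellent of the class (chr5:13124822-13603485), was much less covered for its length, with 841, 265 and 0 bp in WT cocaine, 728, 0 and 838 in WT saline, 2215 and 1496 in cKO cocaine, and 1454, 933 and 128 in cKO saline. On the per-kb scale these 3 genes had 137, 58.5 and 1.66 covered bp per kb of window, averaged over the 11 libraries, and 119.02, 52.3 and 1.19 without the cKO replicates 1. Sema3c, Sema3e, Sema4d, Sema4g, Sema6a and Sema6d had no peak outside the cKO replicates 1. No class 4 semaphorin and only 1 gene each of class 3 (Sema3f) and of classes 5 to 7 (Sema5b) had a peak in all 11.

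Of the 7 plexins, the receptors that turn semaphorin binding into collapse of the growth cone, 3 had a peak in all 11 libraries (Plxna1, Plxna4 and Plxnc1) and each had one outside the cKO replicates 1. Plxnd1, the receptor of Sema3e (chr6:115954811-115995339), was the most covered plexin, with 6604, 6321 and 4522 bp in WT cocaine, 3658, 506 and 1794 in WT saline, 7403 and 4040 in cKO cocaine, and 6348, 1410 and 0 in cKO saline. The WT cocaine libraries all lay above the WT saline libraries. Plxna1, a co-receptor for class 3 and class 6 semaphorins (chr6:89316313-89362613), had 5598, 3626 and 2120 bp in WT cocaine, 1138, 139 and 1590 in WT saline, 3793 and 1759 in cKO cocaine, and 1299, 1514 and 112 in cKO saline. Here neither genotype overlapped between cocaine and saline.

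Marked genes were found in both subclasses of Eph receptors. Ephrins are membrane-bound ligands, EphA receptors bind mostly the lipid-anchored A ephrins, and EphB receptors bind the transmembrane B ephrins. Of the 5 EphB genes, 4 had a peak in all 11 libraries (Ephb1, Ephb2, Ephb3 and Ephb4), and Ephb6, which encodes a receptor without kinase activity, had none. Of the 9 EphA genes, 2 had a peak in all 11 (Epha2 and Epha8), and Epha5 and Epha6 had none outside the cKO replicates 1. Averaged over libraries, the EphB windows had 27311 and the EphA windows 2908 covered bp per Mb, and 22620 and 1866 without the cKO replicates 1. Of the EphB genes Ephb2 held the most covered bases, and the subclasses were not compared by a test.

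Ephb2 (chr4:136647536-136836326) was the most covered guidance gene of all, with 21226, 15068 and 11560 bp in WT cocaine, 13102, 3104 and 6652 in WT saline, 18207 and 9737 in cKO cocaine, and 20407, 8579 and 2781 in cKO saline. Means were 15951 ± 4893 bp (SD, n = 3) in WT cocaine and 7619 ± 5069 bp (SD, n = 3) in WT saline, and these groups overlapped. Ephb1 (chr9:101922128-102354693), spread over a longer gene, had 2548, 5320 and 2512 bp in WT cocaine, 5664, 3132 and 3158 in WT saline, 6147 and 3025 in cKO cocaine, and 9793, 1568 and 296 in cKO saline. Epha4, a receptor for A and B ephrins known for its part in the corticospinal tract (chr1:77367182-77515107), had 543, 309 and 248 bp in WT cocaine, 282, 0 and 0 in WT saline, 2193 and 0 in cKO cocaine, and 1994, 433 and 0 in cKO saline. Its level was low outside the cKO replicates 1. Among the 7 ephrins, Efna3 (chr3:89313899-89322939) and Efnb2 (chr8:8617235-8661242) had a peak in all 11 libraries. Efna3 was, with Robo3, the densest guidance gene, at 139 covered bp per kb (123 without the cKO replicates 1, where Robo3 had 134), with 3320, 2974 and 3099 bp in WT cocaine, 3122, 1175 and 2391 in WT saline, 3383 and 1751 in cKO cocaine, and 4695, 1737 and 1517 in cKO saline.

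The Slits are secreted repellents that bind Robo receptors, and the 2 families were not compared by a test. Slit1 and Slit3 had a peak in all 11 libraries and Slit2 in 10. Slit1 (chr19:41597824-41747275) had 10069, 9024 and 4995 bp in WT cocaine, 5966, 245 and 437 in WT saline, 11171 and 4639 in cKO cocaine, and 11085, 5911 and 1944 in cKO saline. WT saline replicates 2 and 3 lay far below the cocaine libraries, but WT saline replicate 1 lay inside their range. Robo1, the main Slit receptor of forebrain axons (chr16:72027518-73047491), had 3139 bp in cKO cocaine replicate 1, 4690 in cKO saline replicate 1, 159 in cKO cocaine replicate 2, 425 in WT saline replicate 3 and no peak in the other 7 libraries. Robo2 was covered only in the cKO replicates 1. Robo3, a divergent Robo needed for commissural axons to cross the midline (chr9:37416045-37433436), was the exception among the receptors, with 5487, 3570 and 3977 bp in WT cocaine, 3234, 1604 and 3989 in WT saline, 4965 and 5329 in cKO cocaine, and 3799, 3754 and 2156 in cKO saline. This made 139 covered bp per kb, against 0.743 for Robo1, and 134 against 0.0630 without the cKO replicates 1. The windows of Robo3 and its neighbour Robo4 overlap, and 31 of the 64 windows held bases of another coding gene.

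Netrins attract or repel axons, and the Unc5 receptors carry the repulsive response. Ntn1, the founding netrin (chr11:68209364-68386826), had 13479, 14853 and 9121 bp in WT cocaine, 9299, 3622 and 4295 in WT saline, 12178 and 9294 in cKO cocaine, and 11710, 3274 and 2326 in cKO saline. WT means were 12484 ± 2993 and 5739 ± 3102 bp (SD, n = 3 each), and WT saline replicate 1 reached just above the lowest cocaine library. Unc5a (chr13:54945151-55006018) had 7732, 8445 and 4602 bp in WT cocaine, 5111, 2682 and 4615 in WT saline, 13230 and 3149 in cKO cocaine, and 10855, 2842 and 1235 in cKO saline. Unc5b (chr10:60762594-60831581) had 5462, 4745 and 1969 bp in WT cocaine, 3932, 2716 and 2139 in WT saline, 7182 and 3879 in cKO cocaine, and 6065, 3739 and 181 in cKO saline. These 3 genes were covered in all libraries with overlapping groups, whereas Unc5c had a peak in cKO saline replicate 1 alone. Split by role, 8 of 34 ligand genes and 12 of 30 genes counted as receptors had a peak in all 11 libraries, where the 30 include Unc5cl, which the rule took in by its symbol.

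Part of the coverage sat in the same place in nearly all libraries. There were 20 regions, in 12 genes, that lay under a peak in at least 9 of the 11 libraries, with 10719 bp in all and a median width of 344 bp. Of these, 17 (85.0%) had their midpoint within 5 kb of an end of the gene. In a short gene this is bound to hold, since all of the Efna3 window (a gene of 9.04 kb) lies that near an end. Some regions are also neighbouring pieces, such as those of Ephb4 and those of Plxnd1 (366 and 4 bp wide). The widest region was at Robo3 (chr9:37432466-37434489, 2024 bp, across the higher-coordinate end of the gene). Next came Ntn1 (chr11:68384645-68385967, 1323 bp), Efna3 (chr3:89320533-89321720, 1188 bp) and Sema3f (chr9:107708259-107709385, 1127 bp), each with its midpoint 1521 to 1813 bp inside the higher-coordinate end. The 3 regions of Unc5a lay 5379 to 7077 bp inside its lower-coordinate end. The gene table used gives no strand, so a start site could not be told from the other end of a gene. Taking both ends together, the windows from 5 kb outside to 2 kb inside make up 7.13% of the guidance window length and held a median of 42.0% of its covered bases (32.7 to 57.4% over libraries). For all coding genes these figures were 21.1% and 60.8%. Much of the coverage of Ephb2, Sema5b, Slit1 and Unc5a lay elsewhere in the gene, since 14.6, 17.8, 8.55 and 12.4% of their covered bases were in the end windows, whereas it was 85.6% for Robo3.

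**Figure D4:**
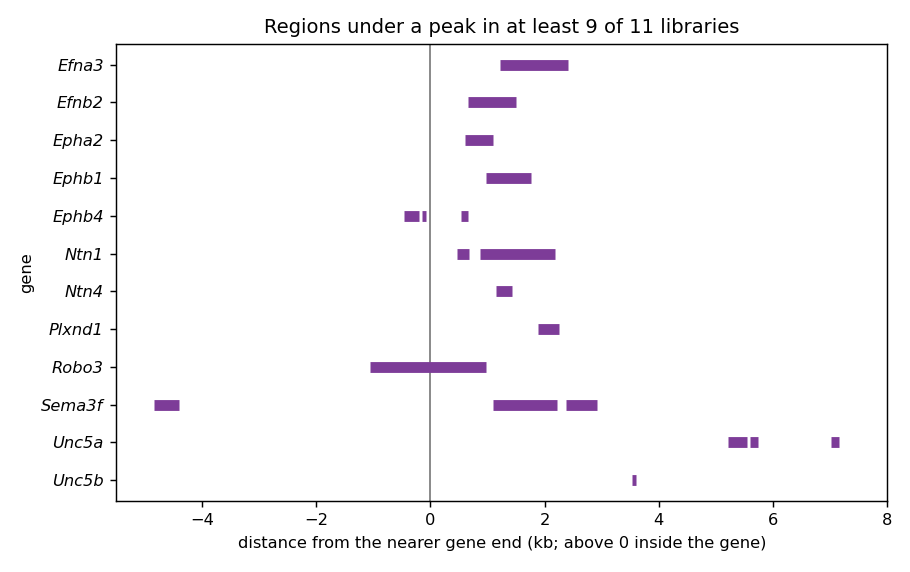
Position of the 20 regions that lay under a peak in at least 9 of 11 libraries, as the distance in kb of each from the nearer end of its gene, with values above 0 inside the gene and bars drawn to the width of the region. Most bars lie within 3 kb inside a gene end, Robo3 spans the end, and the 3 regions of Unc5a lie 5 to 7 kb inside.

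Repeated cocaine was compared with saline in WT mice to ask whether the mark on these genes moved with the drug. Covered bases in the guidance windows were 148, 137 and 85.5 kb in WT cocaine and 101, 34.8 and 61.3 kb in WT saline. The cocaine mean was 2.00-fold that of saline on the log2 scale (a difference of 1.00 ± 0.51, SE), while the windows of all coding genes differed by 1.66-fold (0.73 ± 0.31, SE), and in both cases the libraries overlapped. Relative coverage differed by 0.27 ± 0.21 (SE, log2), and by 0.10 to 0.44 with 1 library left out. The share of guidance genes with a peak was 65.1 ± 4.77% (SD, n = 3) in cocaine and 61.5 ± 11.1% (SD, n = 3) in saline, a difference of 3.65 ± 6.97 percentage points (SE), which turned to −0.521 points with equal peak numbers and ran from −1.30 to 9.64 points with 1 library left out. By mean covered bp, 39 of the 64 genes were higher in cocaine, 13 lower and 12 equal, with a median difference of 240 bp. Of the genes with a peak in at least 1 of these 6 libraries, 75% of guidance and 77.1% of coding genes were higher, so the guidance genes lay near the share of coding genes.

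A gene was called where every library of one group lay above every library of the other. In WT mice, 9 guidance genes were called higher in cocaine (14.1%), where 6.13% of all 20665 coding genes were. None was called lower, where 0.111% of coding genes were. Since a gene without peaks cannot be called, these figures also depend on how many genes carry peaks. Of genes with a peak in at least 1 of the 6 WT libraries, 17.3% of guidance and 15.5% of coding genes were called higher, and of those with a peak in each of the 6, 24.0 and 30.6%. The share of guidance genes called was thus near that of other marked genes. With 3 against 3 libraries the smallest p of the two-sided exact permutation test is 0.10, and no gene of the table could pass 0.05. Every one of the 9 had an exact permutation p of 0.10 and an adjusted p of 1 over all coding genes.

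The 9 genes came from each of the signalling systems. In bp, Plxnd1 had the largest difference of the 9, with 5816 ± 1129 bp (SD, n = 3) in cocaine and 1986 ± 1585 bp (SD, n = 3) in saline, 2.93-fold higher. Plxna1 had 3781 ± 1744 and 956 ± 742 bp (SD, n = 3 each), 3.96-fold higher. Both are semaphorin receptors. Among the Slits, Slit3 (chr11:35121456-35708507), with 4554, 6570 and 2805 bp in cocaine and 1798, 578 and 522 in saline, was 4.81-fold higher. Slit2 (chr5:47981291-48307735) had 2183, 1800 and 1421 bp in cocaine and 1286, 548 and 371 in saline, 2.45-fold higher. Both genes code for ligands of the Robo receptors, of which none was called. Sema6b, a transmembrane semaphorin that binds A plexins (chr17:56123085-56140343), had 2028, 1300 and 583 bp in cocaine, 0 and 0 in saline replicates 1 and 2, and 205 in replicate 3. In these WT libraries all of it lay in the flanks, outside the gene body. Efnb2 had 2214, 1429 and 1965 bp in cocaine and 1240, 1070 and 854 in saline, 1.77-fold higher. Ntn4, a basement membrane netrin (chr10:93641049-93745972), had 1719, 1600 and 1095 bp in cocaine and 1065, 293 and 665 in saline, 2.18-fold higher. Epha10, another receptor without kinase activity (chr4:124881530-124917801), had 669, 1326 and 286 bp in cocaine and 222, 115 and 0 in saline. With bases within 5 kb of other coding genes left out, Epha10 had no covered bp in WT cocaine and 0 to 115 bp in WT saline, and Sema6b had 0 to 496 bp in WT cocaine and none in WT saline, so that neither was called. The remaining gene, Epha3, fell outside the rule for naming by its size, and was named after its values were seen. It had 782, 105 and 254 bp in cocaine and no peak in saline.

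**Figure D5:**
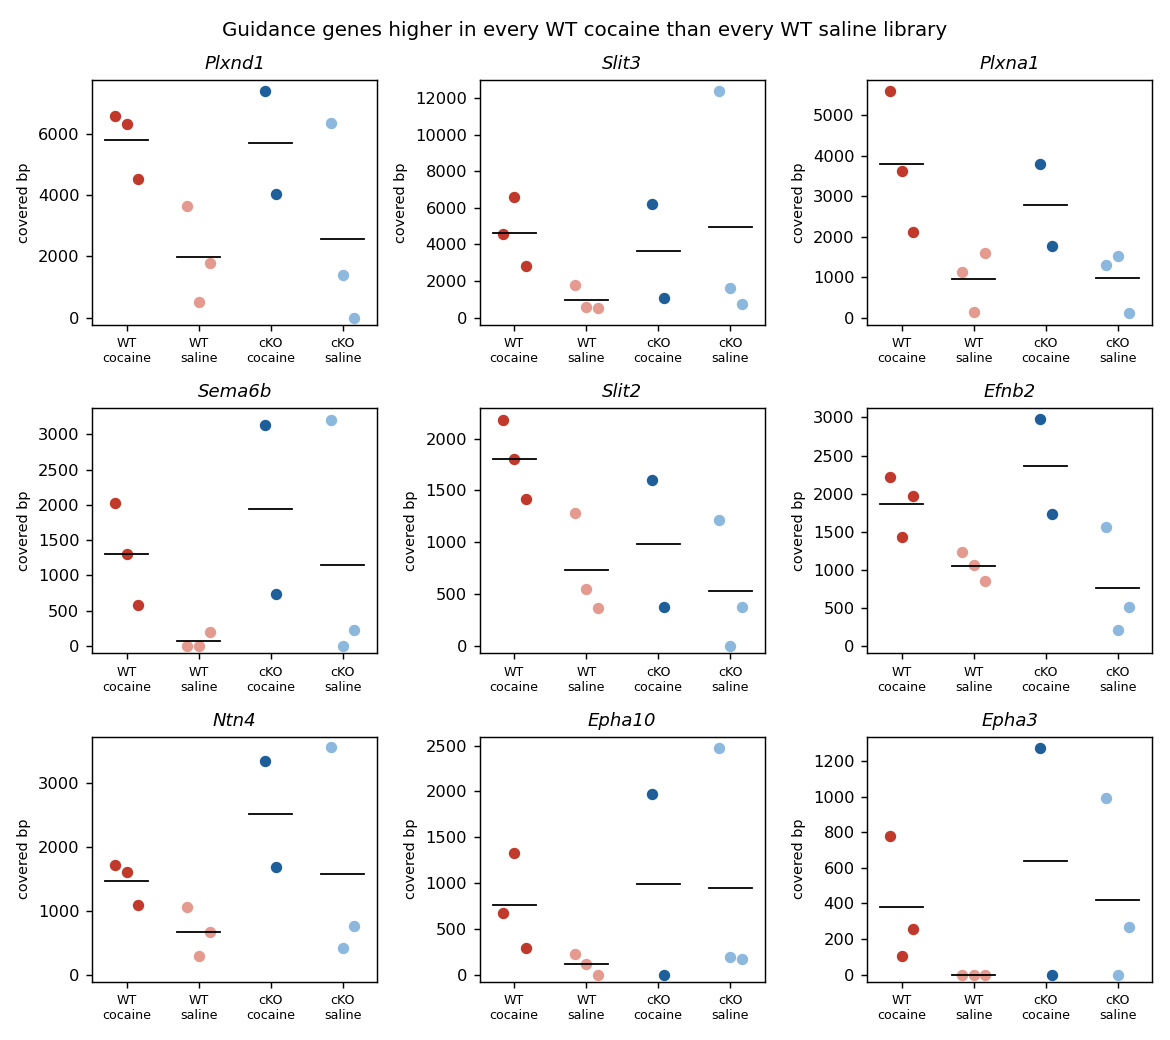
Covered bp of the 9 guidance genes in which each WT cocaine library lay above each WT saline library, with a point for each library of the 4 groups and a line at the group mean (n = 3, 3, 2 and 3). For Plxnd1 the WT cocaine libraries lie between 4522 and 6604 bp and the WT saline libraries between 506 and 3658 bp, while the highest point of the cKO groups is in each case a replicate 1.

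The peak number of the lists moved with these calls. WT cocaine lists had 15874 to 26055 peaks and WT saline lists 8955 to 23748. When each list was reduced to its 7235 peaks of lowest p, 4 guidance genes (6.25%) were called higher in WT cocaine, where 3.17% of coding genes were, and of the 9 above only Plxnd1 (2978 to 5196 bp in cocaine, 506 to 2440 in saline) and Slit2 (1421 to 2183 bp against 0 to 372) were among them. Leaving out a library can only keep or add calls. Without WT cocaine replicate 3 there were 21 (32.8%, beside 12.2% of coding genes), and without WT saline replicate 1 there were 20 (31.3%, beside 11%). Whether list length accounts for the other 7 calls was not tested.

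In cKO mice the same comparison rested on 2 cocaine and 3 saline libraries. Covered bases in the guidance windows were 207 and 82.0 kb in cocaine and 225, 59.1 and 24.5 kb in saline, a log2 difference of 0.92 ± 1.14 (SE), and relative coverage differed by 0.28 ± 0.34 (SE, log2). The covered bp difference was −0.05 with equal peak numbers, 0.25 without cKO cocaine replicate 1 and, with saline replicate 3 or 1 left out, 0.18 or 1.78. With 1 library left out, the difference in log2 relative coverage ran from 0.05 to 0.51. There were 4 guidance genes called higher in cocaine (6.25%, where 2.66% of coding genes were) and none called lower (0.0532% of coding genes). They were Robo3, with 5147 ± 257 bp (SD, n = 2) against 3236 ± 936 bp (SD, n = 3), Plxna1 with 2776 ± 1438 against 975 ± 755 bp, Efnb2 (2982 and 1739 bp in cocaine, 1560, 215 and 513 in saline) and Sema3a. Their exact permutation p ran from 0.10 to 0.20, with adjusted p of 1. Of genes with a peak in each of these 5 libraries, 19% of guidance and 14.1% of coding genes were called higher. Without the replicates 1 the log2 differences were 1.11 in covered bp and 0.24 in relative coverage. Then 1 cocaine library stood against 2 saline libraries, and 31 guidance genes (48.4%) lay higher, where 18.6% of coding genes did, and 2 (3.13%) lower, where 0.789% did. A gene called with all libraries stays called when libraries are left out, so these counts can only grow.

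The cocaine differences of the genotypes were compared gene by gene, by permuting treatment labels within genotype (200 arrangements, smallest possible p of 0.005). These arrangements suppose no cocaine difference in either genotype, which is more than an equal difference in both. Of all coding genes only 0.121% had a permutation p below 0.05, so a large p here does not show that the differences were equal. The smallest p among guidance genes was 0.145, for Sema3a (−153 bp in WT and 1017 bp in cKO, an exact permutation p of 0.145), and its adjusted p was 1. Slit3 had a difference of 3677 bp in WT and −1306 bp in cKO (exact permutation p of 0.365), where cKO saline replicate 1 had 12406 bp. For the group of genes, the cKO difference exceeded the WT difference by −0.08 ± 1.25 (SE) in log2 covered bp and by 0.01 ± 0.40 in log2 relative coverage, so that the interval around each was wide against the WT difference itself.

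The genotypes were then compared under each treatment, which reuses the libraries of the comparisons between treatments. In saline, no guidance gene was called higher or lower in cKO (0.344 and 0.387% of coding genes were), and the log2 difference in covered bases was 0.20 ± 1.03 (SE). By mean, 55 of 64 genes were higher in cKO, which is 87.3% of the guidance genes with a peak in these libraries, near the 85.4% of such coding genes, and the mean of cKO saline is carried by its replicate 1. Without that library, the log2 difference was −0.66 and 6 guidance genes (9.38%) were called lower, where 3.37% of coding genes were. Without cKO saline replicate 3 instead, the log2 difference was 0.94 and 9 guidance genes (14.1%) were called higher, where a smaller share of coding genes was. It was 0.57 without WT saline replicate 1. The sign of the genotype difference in saline therefore depended on which library was left out. In cocaine, 4 guidance genes were called higher in cKO (6.25%, where 3.8% of coding genes were) and none lower (1.87% of coding genes). Of the genes with a peak in at least 1 of these libraries, 6.67% of guidance and 6.68% of coding genes were called higher, and of those with a peak in each, 0 and 5.79%. The 4 genes were Sema3a (1856 ± 508 bp, SD, n = 2, against 369 ± 430 bp, SD, n = 3), Robo1 (3139 and 159 bp against no peak in 3 WT cocaine libraries), Plxnb2, a receptor of class 4 semaphorins (1435 and 195 bp against 131, 0 and 0), and Sema3d (286 and 702 bp against 217, 263 and 0). Each had an exact permutation p of 0.10 and an adjusted p of 1. The log2 difference in covered bases was 0.12 ± 0.71 (SE). It was −0.55 without cKO cocaine replicate 1, and then 19 guidance genes (29.7%) were lower, where 8.64% of coding genes were. It was 0.79 without cKO cocaine replicate 2, and then 45 (70.3%) were higher, where 38.2% of coding genes were. Both counts set 1 cKO library against 3 WT libraries. The direction of the genotype comparison in cocaine therefore turned on which of the 2 cKO cocaine libraries was used.

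Set beside other gene families with the same windows, the guidance genes stood between extremes. The 19 Wnt ligand genes had a median of 103 covered bp per kb (91.9 without the cKO replicates 1) and 16 of them (84.2%) a peak in all 11 libraries. The 92 potassium channel genes had 7.88 bp per kb (5.10) and 22 (23.9%), and the 87 ribosomal protein genes had 0 bp per kb and 0, with no peak at all in 50 of them. Guidance genes had 11.7 bp per kb and all coding genes 1.04, which became 4.92 and 0 without the cKO replicates 1. The share called higher in WT cocaine was 57.9% for Wnt genes, 16.3% for potassium channel genes and 0% for ribosomal protein genes, where 6.13% of all coding genes were. Such shares depend on how many genes carry peaks, and those among genes with a peak are not given for these lists. A further list of 47 co-receptors, effectors and other guidance genes had 5.02 bp per kb (2.67 without the cKO replicates 1), 12 genes (25.5%) with a peak in all 11 libraries, and 7 (14.9%) called higher in WT cocaine and none lower. Of these, Trio, an exchange factor acting downstream of netrin receptors, had 11223, 6518 and 5386 bp in WT cocaine and 4296, 236 and 5069 in WT saline. Ntng2, a membrane-anchored netrin relative, had 9756, 8846 and 5603 bp against 3823, 1420 and 1739. Flrt1, of a family that binds Unc5 receptors, had 6218, 5717 and 2427 bp against 1288, 400 and 462. Dcc, the attractive netrin receptor, had peaks only in the cKO replicates 1.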

How the data were processed

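Guidance genes, comparison lists and tests were chosen with earlier results of these data known. Per the labels and published methods, the authors aligned read pairs to mm10 (Bowtie2 2.3.4.1), filtered them with SAMtools and called broad peaks for each library on its own against input chromatin (MACS2 2.1.1.20160309.3). Each deposited list gives, per peak, a score, the fold enrichment over input (a linear ratio), and the −log10 p-value and −log10 q-value. All deposited peaks were used, up to a q of 0.0997. Read depth is not held by these lists, and counting error could not be computed.

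Genes came from a RefSeq table of GRCm38.p6, whose coordinates are those of mm10, and 31 of 64 windows (gene body with 5 kb on each side) hold other coding genes. Covered bp per window was computed with Python 3.11.15, numpy 2.4.6 and pandas 2.3.3, by code tested on simulated data. Calls required that the libraries of both groups did not overlap. Exact two-sided permutation tests over libraries were run on every coding gene and adjusted by Benjamini-Hochberg. The smallest p they can give is 0.10, for 3 against 3 as for 2 against 3 libraries. Group scores have an SE and no p. The libraries are separate pools by the labels, and nothing says how the mice were assigned to them. The study states that its experiments were repeated in 2 to 3 batches, without saying which library came from which.

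Named genes were Sema3a, Epha4, Slit1 and Robo1, the 10 most covered genes with a peak in all 11 libraries, up to 8 genes called per direction in WT and 4 in each cKO comparison, the 5 densest per kb, those with no peak, and up to 5 called genes of the other guidance list. Others, named for having or lacking peaks, were chosen after their values were seen, as was Dcc. Replicate numbers were checked for pairing by correlating deviations from group means over 14196 genes. Same-numbered libraries correlated at −0.01 to 0.02 in WT. Between cKO cocaine and cKO saline they correlated at 0.26 and 0.22, and each was the best match. The numbers were not taken to pair the libraries, and the replicate block is given as an alternative. Alternatives were a q limit of 0.05, equal peak numbers, other windows, the narrower symbol rule, a minimum of 100 covered bp, libraries left out, and the replicate block. Leaving out bases near other genes was chosen after seeing the data. A list of genes silent in thalamus is not reported here.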

Additional observations from a re-analysis of the deposited data

How the results depend on the processing

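The number of genes called moved with most settings, and the cause was not tested. With equal peak numbers, 4 genes were called higher in WT cocaine (6.25%, where 3.17% of coding genes were), 0 in cKO cocaine against cKO saline (0.624% of coding genes), 2 higher and 8 lower in cKO than WT cocaine (3.13 and 12.5%, coding genes 0.842 and 3.64%), and 3 lower in cKO than WT saline (4.69%, coding genes 1.63%). The log2 difference in covered bp between cKO and WT cocaine became −1.21, while the difference in log2 relative coverage was 0.04. With gene-end windows, 7 were called higher in cKO cocaine than cKO saline (10.9%, coding genes 3.20%), 1 lower in cKO than WT saline (1.56%, coding genes 0.581%), and 2 higher and 4 lower in cKO than WT cocaine (3.13 and 6.25%, coding genes 2.51 and 2.3%), where the difference in log2 relative coverage was 0.24. With q at most 0.05, 2 were lower in cKO than WT cocaine (3.13%, coding genes 1.82%). Without replicate 1 of both cKO groups, 31 were higher and 2 lower in cKO cocaine than cKO saline (48.4 and 3.13%, coding genes 18.6 and 0.789%). Of the 9 genes called in WT, 9 were still called at q at most 0.05, 6 in gene bodies, 6 in gene-end windows and 7 without bases near other genes, where Epha10 and Sema6b were lost.

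Leaving out 1 library at a time can only keep or add calls, and gave 9 to 21 genes higher and 0 to 2 lower in WT cocaine, 4 to 29 higher and 0 to 2 lower in cKO cocaine against cKO saline, 0 to 9 higher and 0 to 6 lower in cKO than WT saline, and 4 to 45 higher and 0 to 19 lower in cKO than WT cocaine. With any 1 library left out, the last comparison ran from −5.73 to 28.6 percentage points in share. It ran from −0.55 to 0.79 in log2 covered bp and from −0.22 to 0.24 in log2 relative coverage. In WT, the log2 covered bp difference ran from 0.61 to 1.38, and in cKO from 0.18 to 1.78.

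The labels give groups the same replicate numbers. With the replicate block (every same-numbered difference of 1 sign), 18 genes were higher in WT cocaine (28.1%, where 10.4% of coding genes were), 17 higher and 5 lower in cKO cocaine against cKO saline (26.6 and 7.81%, where 7.90 and 3.65% of coding genes were), 4 higher in cKO than WT saline (6.25 against 1.55%), and 7 higher and 6 lower in cKO than WT cocaine (10.9 and 9.38%, where 5.75 and 6.91% of coding genes were). In WT the same-numbered libraries were not more alike than others. The cKO groups share only 2 numbers, and there the same-numbered library was the best match (correlations of 0.26 and 0.22). The block gave a cKO log2 covered bp difference between cocaine and saline of 0.18.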

Other observations

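The rule left out 3 guidance genes on the X chromosome, the chromosome of Maged1. Their gene windows carried little of the mark. Plxna3, a receptor of class 3 semaphorins (chrX:74328290-74344689), had no peak in any of the 11 libraries. Plxnb3 (chrX:73756556-73772510) had 127 covered bp in cKO cocaine replicate 1 and 602 in cKO saline replicate 1. Efnb1, the B ephrin whose loss disturbs craniofacial development (chrX:99136061-99149022), had 435 bp in WT saline replicate 3 and 715 in cKO cocaine replicate 1. None of the 3 had a peak in WT cocaine.

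The levels of the guidance genes were compared between libraries. Over the 36 pairs among the 9 libraries other than the cKO replicates 1, Pearson's r of covered bp across the 64 genes ran from 0.637 to 0.960 with a median of 0.831, and Spearman's rho from 0.669 to 0.904 with a median of 0.80, as a description, since the genes share window lengths and each list its peak number.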
